A study of Mus musculus with 5 samples.

Results

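The miR-10, miR-99/100 and miR-125 families were examined in small RNA libraries of OP9, a mouse bone-marrow stromal line that can form adipocytes. Their 7 mature 5p miRNAs (mmu-miR-10a-5p, mmu-miR-10b-5p, mmu-miR-99a-5p, mmu-miR-99b-5p, mmu-miR-100-5p, mmu-miR-125a-5p and mmu-miR-125b-5p) were taken by name from 1105 listed mature miRNAs. They filled 8 of 1191 listed entries, each a mature miRNA paired with a precursor, because miR-125b has 2 precursors. The libraries came from Drosha knockout (KO) cells (2 libraries) and from cells given an empty vector, with a wild-type genotype label (3 libraries). Drosha is the nuclear RNase that releases hairpins from most primary miRNA transcripts. Every library was made on day 10 of adipogenic differentiation, with rosiglitazone, a PPARγ agonist that promotes fat cell formation, present at 1 µM in both groups. The sources used here do not say whether the knockout is 1 clone or whether replicates are separate cultures. The p-values therefore rest on the spread between libraries, and that spread may be technical. For the linear-model p-values (limma), it was mostly pooled over other miRNAs of similar level.

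As background, a miRNA recognises its targets mainly through its seed, bases 2 to 8 from the 5′ end, and paralogues with the same seed can act on overlapping sets of mRNAs. miR-125 is the vertebrate counterpart of lin-4, the developmental timing miRNA of Caenorhabditis elegans, and miR-125b is known as a regulator of stem cell and stromal cell differentiation. The miR-99/100 miRNAs are known for targeting components of mTOR signalling, and the miR-10 genes sit inside Hox gene clusters. In vertebrates the miR-99/100 and miR-125 genes lie in duplicated clusters, each with a let-7 gene between them, so paralogues at different loci can be compared with each other and with the partners of their own cluster.

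The mature sequences follow because seed and near-identity decide how the members can be grouped and told apart. They are given 5′ to 3′ from RefSeq (GRCm38.p6), where all 7 matched by name, with the seed in capitals.
mmu-miR-10a-5p: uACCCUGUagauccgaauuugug
mmu-miR-10b-5p: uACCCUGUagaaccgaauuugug
mmu-miR-99a-5p: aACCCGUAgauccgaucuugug
mmu-miR-100-5p: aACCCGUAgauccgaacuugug
mmu-miR-99b-5p: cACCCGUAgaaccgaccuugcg
mmu-miR-125a-5p: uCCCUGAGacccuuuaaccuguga
mmu-miR-125b-5p: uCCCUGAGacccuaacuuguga

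There are 3 seeds among the 7 members. miR-10a and miR-10b differ only by U12A, counted from the 5′ end with the base of miR-10a first. miR-99a and miR-100 differ only by U16A. miR-99b differs from miR-99a at 4 positions (A1C, U11A, U16C and U21C), none of them in the seed. miR-125a is 24 bases long against 22 for miR-125b, and the first 13 bases are the same. Pairs that differ by 1 base are uncertain as separate measurements, since the treatment of mismatches during counting is not stated.

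On GRCm38 the genes lie on 5 chromosomes. Mir99b (chr17:17830188-17830257) and Mir125a (chr17:17830812-17830879) start 624 bases apart on the plus strand with Mirlet7e between them, all within the coding gene Spaca6, where Mir99b is intronic and Mir125a overlaps an annotated exon. Mir99a (chr16:77598936-77599000) and Mir125b-2 (chr16:77646273-77646343) start 47337 bases apart in introns of the non-coding gene Mir99ahg. Mir99a also lies in an intron of the coding gene Gm11146 on the other strand. Mir100 (chr9:41531425-41531504) and Mir125b-1 (chr9:41581926-41582002) start 50501 bases apart in introns of the non-coding gene 3110039I08Rik, and Mir100 overlaps an exon of the antisense gene Gm48742. Mir10b (chr2:74726070-74726137) lies in introns of Hoxd3 and Hoxd4. Mir10a (chr11:96317165-96317274) overlaps no other annotated gene, and its nearest coding gene is Hoxb4 at a distance of 993 bases.

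Values are TPM, reads divided by the length of the miRNA and rescaled to the same total in every library. They give relative abundance among the listed miRNAs, so a higher or lower TPM does not give an amount per cell, and fewer cells and less RNA per cell cannot be told apart. Whole reads could be recovered from the TPM steps and came to 304722 and 277142 with the knockout and 1918589 to 2262367 with the empty vector, a 7.11-fold difference in the means. The Drosha transcript was not analysed here. As a check of the labels, 5 miRNAs known to be made without Drosha (miR-484, miR-877-5p, miR-1981-5p, miR-702-5p and miR-1839-5p) reached a sum of 26699 and 27349 TPM with the knockout, against 4228 to 5736 TPM with the empty vector. Across tested miRNAs, log2 values correlated at 0.956 between the knockout libraries and at 0.987 to 0.989 between empty-vector libraries. Mesenchymal marker miRNAs (6 of 8 listed, none at 0 in all libraries) summed to 24685 to 33047 TPM in the knockout and 17126 to 18786 TPM in the empty-vector group. Their directions were mixed in the comparison described below. The log2 changes were 1.41 for miR-145a-5p, 0.92 for miR-199b-5p, 0.70 for miR-199a-5p and 0.51 for miR-143-3p, but -0.39 for miR-214-5p. Those of miR-199b-5p and miR-214-5p did not pass the threshold of that comparison (limma, BH-adjusted p = 0.129 and 0.180). The remaining listed marker did not pass its filter on level. Of the markers of other cells, 5 of 8 haematopoietic ones were listed, 3 of them at 0 throughout (miR-142a-5p, miR-223-5p and miR-144-5p). The sums of this list were 19.9 to 73.3 against 11.5 to 18.5 TPM, with log2 changes of 2.17 for miR-451a and -1.33 for miR-150-5p. The change of miR-150-5p did not pass either (limma, BH-adjusted p = 0.178). Of 7 epithelial markers 6 were at 0 and the list reached at most 7.33 TPM, while all 4 muscle markers and the endothelial miR-126a-5p were at 0. Neural markers, with miR-124-5p at 0, summed to 3.51 to 9.52 against 14.6 to 15.6 TPM, and the liver marker miR-122-5p was at 25.7 to 36.5 against 5.28 to 11.98 TPM. The part of these marker differences in the results was not tested.

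Among paralogues, the balance of miR-125a and miR-125b differed most clearly between the groups, while miR-99b to miR-100 and miR-10a to miR-10b overlapped. In TPM, miR-125b was higher in the knockout libraries, though not with Drosha-independent scaling, while miR-99a and miR-10a were lower. The comparison used limma on log2(TPM + 1) over the 205 miRNAs that averaged 5 TPM or more, with two-sided p-values adjusted by the Benjamini-Hochberg method (BH) and a threshold of 0.05. All 7 members passed the filter and were tested, of which 1 was higher, 2 were lower and 4 did not pass the threshold. Over all tested miRNAs 55.1% were called, 27.8% as higher and 27.3% as lower, so the members' count by itself is near the background. The members' median log2 change was -0.38, beside -0.083 over all tested miRNAs. Over the 118 miRNAs that averaged at least 50 TPM, as all members except miR-10b did, the median was -0.39. The members' median is therefore near that of miRNAs of higher level. The share of all tested miRNAs whose groups do not overlap was not counted. Non-overlap, where given below, therefore describes a member and does not set it apart from other miRNAs.

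**Figure D1:**
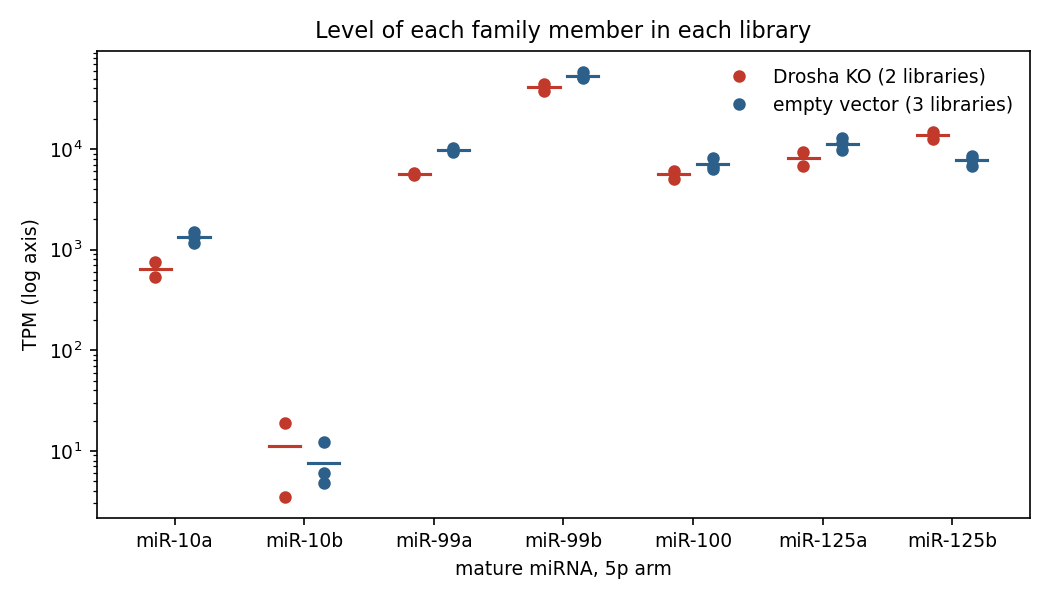
TPM of each member in each library on a log axis, with knockout libraries in red, empty-vector libraries in blue and bars at the group means. The knockout points of miR-125b lie above all its empty-vector points, those of miR-10a, miR-99a, miR-99b, miR-100 and miR-125a lie below, and the groups of miR-10b overlap. How often groups separate among all tested miRNAs was not counted, so the separation is not a result particular to the members.

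In the empty-vector cells the members differed widely in level. miR-99b led at 53630 ± 4032 TPM (SD, n = 3) and was the 4th most abundant of all listed miRNAs in every empty-vector library. It was followed by miR-125a at 11269 ± 1516 TPM, miR-99a at 9773 ± 503 TPM, miR-125b at 7744 ± 928 TPM and miR-100 at 7082 ± 920 TPM (SD, n = 3 each). The libraries' ranges overlapped between miR-125a and miR-99a and between miR-125b and miR-100. Within each empty-vector library miR-125a was above miR-99a. By contrast, miR-125b was slightly below miR-100 in empty-vector library 2 (6735 against 6773 TPM) and above it in libraries 1 and 3. The order of these neighbours was not tested. miR-10a was lower at 1338 ± 163 TPM and miR-10b was last at 7.63 ± 3.93 TPM (SD, n = 3 each).

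In the knockout cells the order changed in its middle. miR-99b again led at 41161 ± 4682 TPM (SD, n = 2), at rank 6 of all listed miRNAs in both libraries. miR-125b moved to the second place at 13676 ± 1434 TPM, from ranks 17 to 23 among all listed miRNAs in the empty-vector libraries to ranks 11 and 13. miR-125a followed at 8113 ± 1879 TPM, then miR-99a at 5692 ± 203 TPM and miR-100 at 5592 ± 715 TPM (SD, n = 2 each), the last pair with overlapping ranges. miR-10a was at 644 ± 162 TPM and miR-10b at 11.3 ± 10.98 TPM (SD, n = 2 each).

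Among the miR-125 paralogues, miR-125b rose in TPM, a call that was lost with TMM (0.39) and a direction that turned when libraries were scaled to Drosha-independent miRNAs (-1.70). It was at 12662 and 14689 TPM with the knockout and at 7937, 6735 and 8560 TPM in the empty-vector libraries. Both knockout libraries were above every empty-vector library. The ratio of means was 1.77, or 0.82 on the log2 scale (SE 0.22, limma, BH-adjusted p = 0.00313), resting on 7823 and 47440 recovered reads in the 2 groups.

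miR-125a, its seed paralogue from the compact Mir99b cluster, was at 6784 and 9442 TPM in the knockout and at 12731, 9704 and 11373 TPM in the empty-vector group. The groups did not overlap, but the highest knockout library lay close to the lowest empty-vector library. The log2 change of -0.48 did not pass the threshold (limma, BH-adjusted p = 0.0698), with a 95% interval of -0.95 to -0.022. It was called with TMM (-0.92) and median-of-ratios (-0.56) factors. It also passed at -0.72 without knockout library 2 (limma, BH-adjusted p = 0.0463, range over all alternatives 1.66e-14 to 0.357), a fit in which the lone knockout library is assumed to vary like the empty-vector libraries.

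The total of the miR-125 family overlapped between the groups. miR-125a and miR-125b together took 3.05% ± 0.40 of TPM in the knockout (SD, n = 2) and 2.67% ± 0.344 in the empty-vector group (SD, n = 3), counting 1 pair per mature miRNA, a difference with an exact permutation p of 0.6. Within that total, miR-125b made up 65.1% and 60.9% in the knockout libraries against 38.4%, 41.0% and 42.9% in the empty-vector libraries. The major paralogue was thus miR-125b in both knockout libraries and miR-125a in all 3 empty-vector libraries (exact permutation p = 0.2, the smallest that 2 against 3 libraries allow). miR-351-5p carries the same seed (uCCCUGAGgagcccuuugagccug) but shares only the first 8 bases with miR-125b. It was at 6748 and 7502 TPM against 11620, 12798 and 7023 TPM, so its groups overlapped, and its log2 change of -0.51 did not pass (limma, BH-adjusted p = 0.0755).

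**Figure D2:**
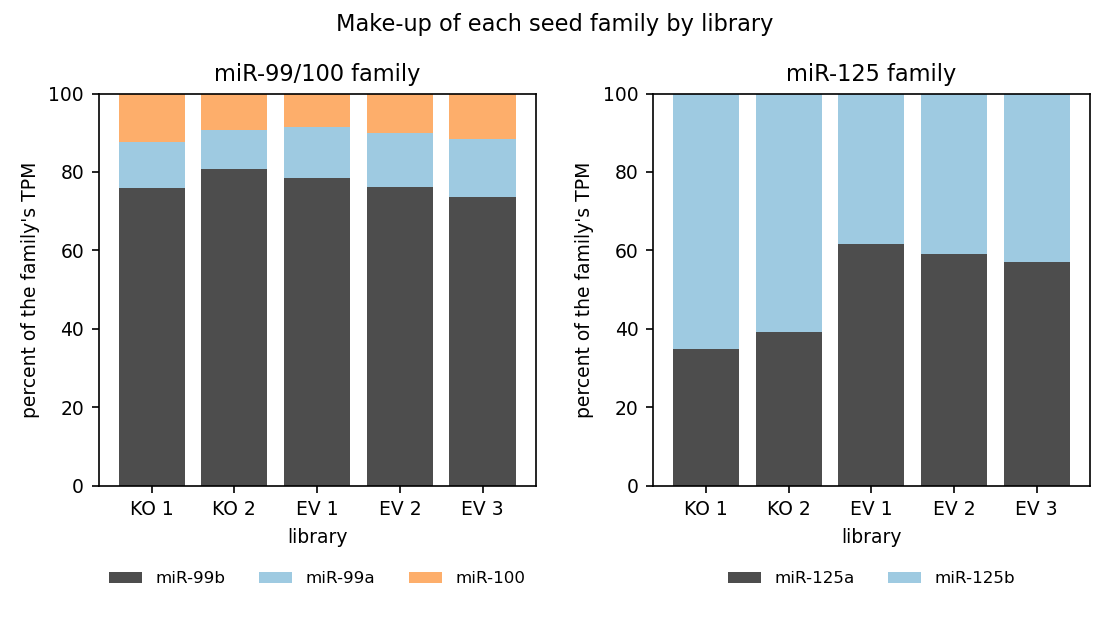
Percent of the TPM of the miR-99/100 family (left) and of the miR-125 family (right) taken by each member in knockout (KO) and empty-vector (EV) libraries, as stacked bars from 0. miR-125a makes up 34.9% and 39.1% of its family in the knockout libraries and 57.1% to 61.6% in the empty-vector libraries, whereas miR-99b holds 73.6% to 80.7% of its family in all 5.

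Its 2 precursor entries allow a limited look at the loci behind miR-125b. The mature sequence is the same from both, and the 2 entries held nearly the same number of reads. Most reads thus appear to have been counted at both, though the counting rule is not stated. The mir-125b-1 entry held 65 and 82 more reads than the mir-125b-2 entry with the knockout and 647, 507 and 503 more with the empty vector. This excess was 1.70% and 2.05% of the mir-125b-1 reads in the knockout and 3.65%, 3.76% and 3.10% in the empty-vector group. The shares did not overlap, with an exact permutation p of 0.2, the smallest possible. The excess is a net difference over a small part of the reads, so it gives no share for either locus. In a fit over all 264 precursor entries that pass the filter, the mir-125b-2 entry was at 0.85 on the log2 scale (limma, BH-adjusted p = 0.000726).

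Of the miR-99/100 paralogues, miR-99a fell. It was at 5835 and 5548 TPM in the knockout and at 9717, 9300 and 10301 TPM in the empty-vector group. The groups were well apart relative to the spread within them. The ratio of empty-vector to knockout means was 1.72. The log2 change of the knockout against the empty vector was -0.78 (SE 0.21, limma, BH-adjusted p = 0.00403).

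miR-99b, the most abundant member, was at 37850 and 44471 TPM in the knockout and at 58284, 51178 and 51430 TPM in the empty-vector group. Every knockout library was below every empty-vector library. The log2 change of -0.38 did not pass the threshold (limma, BH-adjusted p = 0.114), with a 95% interval of -0.81 to 0.044. It was called lower with TMM (-0.82) and with quantile normalization (-0.51).

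miR-100 was at 6097 and 5086 TPM in the knockout and at 6356, 6773 and 8116 TPM in the empty-vector group. These values lay next to each other without overlapping, and the log2 change of -0.34 did not pass (limma, BH-adjusted p = 0.182; 95% interval -0.80 to 0.12). It was -0.21 without knockout library 2 and -0.15 after quantile normalization, while with TMM it was called lower at -0.77. It differs from miR-99a by the single base given above. As a family, miR-99/100 took 7.34% ± 0.373 of TPM in the knockout (SD, n = 2) and 9.88% ± 0.564 in the empty-vector group (SD, n = 3), without overlap (exact permutation p = 0.2, the smallest possible).

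In the miR-10 family, miR-10a fell and miR-10b was too low to judge. miR-10a was at 758 and 530 TPM in the knockout and at 1344, 1171 and 1498 TPM in the empty-vector group. No knockout library reached the lowest empty-vector library. The ratio of empty-vector to knockout means was 2.08, the largest of the 7 members. The log2 change of the knockout against the empty vector was -1.07 (SE 0.26, limma, BH-adjusted p = 0.00134). The call was lost with quantile normalization, at -0.78 (limma, BH-adjusted p = 0.0552, range over all alternatives 8.73e-17 to 0.0552). miR-10b had 6 reads and 1 read with the knockout and 14, 10 and 24 in the empty-vector libraries. At 23 bases, a count of 0 would allow up to 9.52 and 10.5 TPM in the knockout libraries, counting error alone considered. The single read of knockout library 2 (3.51 TPM) lies below that bound, so the level there is poorly fixed at this depth. The log2 change of 0.23 had a 95% interval of -1.24 to 1.70 (limma, BH-adjusted p = 0.783), and its sign turned when knockout library 1 (-0.84) or empty-vector library 2 (-0.011) was left out. miR-10b had 0.406% to 2.45% of the family's TPM, and whether its reads are separate from those of miR-10a was not tested.

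**Figure D3:**
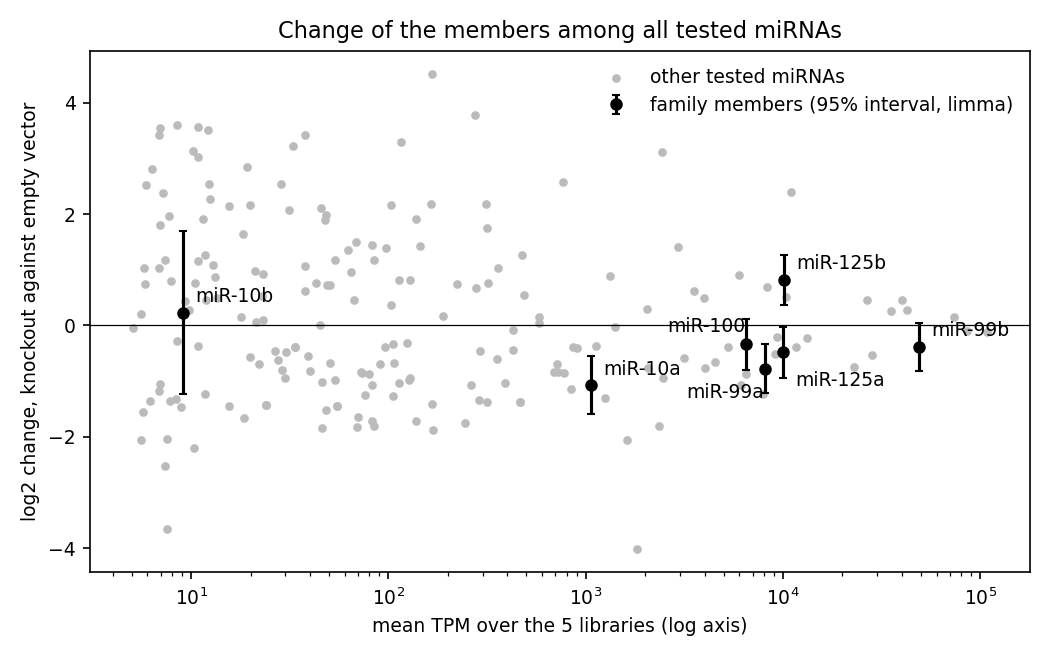
Log2 change against mean TPM (log axis) for the 205 tested miRNAs, with members in black with limma 95% intervals and all others in grey. miR-125b is the only member with an interval above 0, miR-10a, miR-99a and, narrowly, miR-125a have intervals below 0, and miR-10b, at a mean of 9.09 TPM, has the widest interval.

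A ratio of 2 miRNAs within a library does not depend on a factor applied to a whole library, so paralogues were also compared this way. For 10 ratios fixed by locus, a two-sided exact permutation test of 2 against 3 libraries cannot give p below 0.2, so no ratio could pass 0.05 by this test. The lowest BH-adjusted permutation p over the 10 was 0.4, and no other test was run on the ratios. The ratio of miR-125a to miR-125b was 0.536 and 0.643 in the knockout and 1.60, 1.44 and 1.33 in the empty-vector libraries. It was 2.48-fold lower in the knockout, as a ratio of geometric means, and lay on opposite sides of 1 in the 2 groups.

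Between miR-99b and miR-99a the ratio was 6.49 and 8.02 in the knockout and 6.0, 5.50 and 4.99 in the empty-vector libraries, without overlap (exact permutation p = 0.2). Its log2 difference of 0.40 was 0.24 without knockout library 2 and 0.20 after quantile normalization (exact permutation p = 0.6). The ratio of miR-99a to miR-100 was 0.957 and 1.09 against 1.53, 1.37 and 1.27, also without overlap (exact permutation p = 0.2). That of miR-99b to miR-100 overlapped between the groups (log2 difference -0.045, exact permutation p = 0.8), with values from 6.21 to 9.17, and its sign turned without knockout library 1 (0.20) or empty-vector library 1 (0.090). miR-10a to miR-10b overlapped as well, from 39.8 to 245 over the 5 libraries, and its log2 difference of -1.29 was -0.33 without knockout library 1 and -2.25 without knockout library 2.

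Cluster partners were compared in the same way. In the compact cluster on chromosome 17, miR-99b to miR-125a was 5.58 and 4.71 in the knockout and 4.58, 5.27 and 4.52 in the empty-vector libraries, with overlapping groups and a log2 difference of 0.10 (exact permutation p = 0.4), or -0.021 without knockout library 1. The let-7e between them, another member of this cluster, fell to 3729 ± 1271 TPM (SD, n = 2) from 7663 ± 1130 TPM (SD, n = 3), or -1.07 on the log2 scale (limma, BH-adjusted p = 0.00078). Its ratios to both partners overlapped between the groups, and in knockout library 2 miR-99b was 15.7 times and miR-125a 3.34 times let-7e, the highest of the 5 libraries. Without that library the log2 difference of miR-125a to let-7e was -0.0069 instead of 0.59, and that of miR-99b to let-7e was 0.22 instead of 0.69.

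The partners in the other clusters separated. miR-99a to miR-125b was 0.461 and 0.378 in the knockout and 1.22, 1.38 and 1.20 in the empty-vector libraries, a 3.04-fold difference without overlap (exact permutation p = 0.2). miR-100 to miR-125b was 0.482 and 0.346 against 0.801, 1.01 and 0.948, a 2.24-fold difference without overlap (exact permutation p = 0.2). Because miR-125b comes from both of these clusters, each ratio mixes loci. The let-7 partners there, let-7c-5p (log2 change -0.11, limma, BH-adjusted p = 0.651) and let-7a-5p (0.28, limma, BH-adjusted p = 0.271), are also made elsewhere in the genome, and neither passed the threshold.

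**Figure D4:**
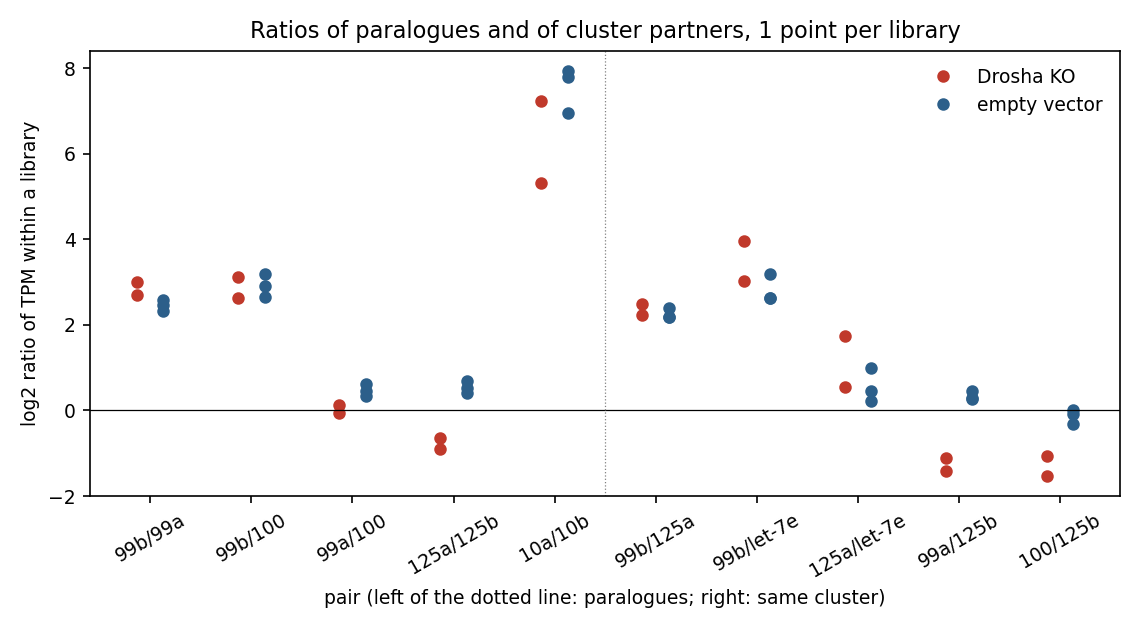
Log2 ratio of TPM within each library for 5 paralogue pairs and 5 pairs of cluster partners, with knockout libraries in red and empty-vector libraries in blue. The groups are farthest apart relative to their spread for miR-125a over miR-125b, miR-99a over miR-125b and miR-100 over miR-125b. They overlap for miR-99b over miR-100 or miR-125a, for miR-10a over miR-10b and for both pairs with let-7e.

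Directions in TPM depend on what the libraries are scaled to. With TMM factors (trimmed mean of M-values), the median log2 change of all tested miRNAs moved from -0.083 to -0.51, and 20.5% were called higher and 40.5% lower. Then 5 members were lower (miR-10a, miR-99a, miR-99b, miR-100 and miR-125a), and miR-125b, at 0.39, was no longer called (limma, BH-adjusted p = 0.127, range over all alternatives 5.29e-07 to 0.127). When each library was instead scaled so that the 5 Drosha-independent miRNAs had the same sum, the median moved to -2.53, 1.46% were called higher and 78% lower, and all 7 members were called lower. miR-125b then turned to -1.70, above that median, while miR-10a was at -3.58 and miR-99a at -3.30, below it. The Drosha-independent sum was mostly miR-484, with a mean of 10987 TPM, beside 2427 TPM for miR-1981-5p and 166 TPM for miR-877-5p. Their log2 changes in TPM differed, at 1.17 for miR-1839-5p, 2.40 for miR-484 and 3.12 for miR-1981-5p, and highest for miR-877-5p. miR-702-5p did not pass the filter. The size of this shift thus rests largely on miR-484, and scaling to single miRNAs was not tested. Relative to the median of all tested miRNAs, miR-125b was higher under all 3 scalings. By the same measure miR-10a, miR-99a, miR-99b, miR-100 and miR-125a were lower. For miR-99b and miR-100 this rests on the filter. In TPM as deposited, the median over the 118 miRNAs that averaged at least 50 TPM was -0.388. There miR-99b (-0.384) and miR-100 (-0.339) lay above it. Over all 264 precursor entries that passed the filter the median was -0.385, again below both. These are plain values with no test of the difference from the median. Both rescalings move all miRNAs of a library together, so the 3 scalings give 1 result here and not separate support.

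**Figure D5:**
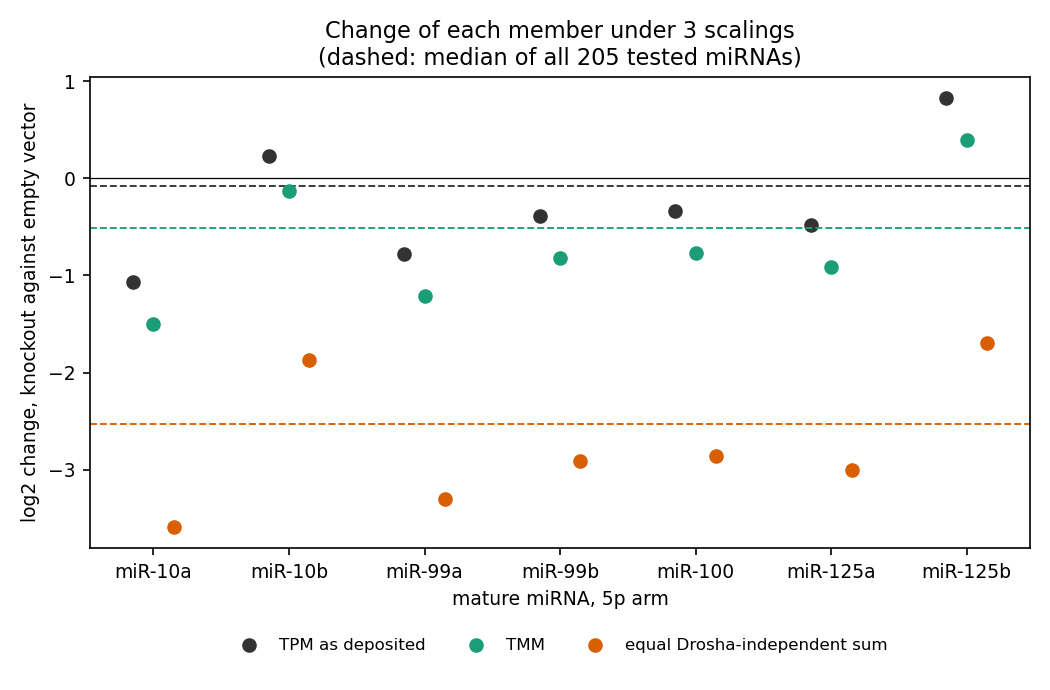
Log2 change of each member with TPM as deposited (black), TMM factors (green) and scaling to the same Drosha-independent sum (orange), with dashed lines at the median of all 205 tested miRNAs under each scaling. miR-125b lies above the dashed line of its colour in each case, and only the height of zero moves it from 0.82 to 0.39 and -1.70.

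Other miRNAs of the Hox clusters, listed because the miR-10 genes share that location, were 3 of 7 named, and 2 were tested. miR-196b-5p, known for targeting Hox mRNAs, fell, at 1489 and 1426 TPM in the knockout against 2279, 2782 and 2372 TPM (log2 change -0.76, limma, BH-adjusted p = 0.00841). miR-196a-5p was at 19.9 and 22 TPM against 21.1, 42.9 and 26.9 TPM and did not pass (log2 change -0.45, limma, BH-adjusted p = 0.405), and miR-615-5p had 0 reads in all libraries, where up to 3 reads each are allowed. The 3p arms of the members' hairpins (8 names) were not among the listed miRNAs, so they could not be analysed here. Their absence from the list says nothing about their levels.

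The miRNA with the most similar profile was sought for each member among 88 others with a mean of at least 100 TPM, by the root-mean-square difference of log2 values centred over the 5 libraries. For miR-125b it was miR-129-5p (difference 0.077, against a median of 0.707 over the 88), and for miR-99a it was miR-151-5p (0.078). miR-99b (0.107) and miR-125a (0.120) had the same nearest profile, miR-214-5p, and their difference from each other was 0.120. For miR-100 it was let-7g-5p (0.0998), for miR-10a miR-28a-5p (0.180) and for miR-10b let-7d-5p (0.535). The paralogues miR-125a and miR-125b differed by 0.652, beside medians over the 88 of 0.499 and 0.707, respectively. Pairs among miR-99a, miR-99b and miR-100 differed by 0.231 to 0.239, below their medians of 0.451 to 0.477. These are descriptions over 5 libraries, in which the difference between the groups takes a large part.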

How the data were processed

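Per the labels' protocols, small RNA libraries carried unique molecular identifiers and were sequenced on DNBSEQ. The authors deposited TPM values for each pair of a mature miRNA and precursor. Per the submitters' processing notes, Bowtie2 2.5.1 and GRCm38 were named with no role, while counting, filters and the use of identifiers or strand are not stated. All 5 columns were matched to samples by name.

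Of several precursor pairs, the one with the highest mean was used. Whole reads were recovered by searching lengths of 15 to 30 bases (tolerance 1e-06): 100% of values came out whole, and the length equalled the RefSeq mature length for 406 of 406 pairs that have one. Totals sum over all entries, so a read counted at several precursors enters more than once. Floors of 3 reads cover counting error only. For a miRNA of 22 bases, a single read adds 3.32 or 3.67 TPM to a knockout library and 0.448 to 0.528 TPM to an empty-vector library.

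Groups were compared with limma 3.58.1 (R 4.3.3), using its trended prior. TPM was log2 transformed after adding a pseudocount of 1, which understates changes of low miRNAs. The prior carried 24.2 degrees of freedom against 3 residual ones, so each SE leaned mostly on miRNAs of similar level. The filter was 5 TPM on average. The script was tested on simulated data. Ratios and shares were tested with exact two-sided permutations (10 assignments of libraries to groups) (scipy 1.17.1), adjusted over 10 ratios or 11 shares. The shares' adjusted p was at least 0.367. Named were the 7 members, their other arms, cluster neighbours, Hox cluster miRNAs, the seed relative miR-351-5p and, for each member, the nearest profile. The members and lists were chosen with earlier results of these data known. Gene positions came from GENCODE M21 (GRCm38).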

Additional observations from a re-analysis of the deposited data

How the results depend on the processing

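The calls of miR-99a and miR-10a (lower) and miR-125b (higher) held without each library in turn, with log2 changes of -0.82 to -0.74, -1.33 to -0.81 and 0.72 to 0.93. Where a knockout library is left out, the remaining one is assumed to vary like the empty-vector libraries, so those fits do not measure the spread between knockout cells. With TMM, 5 members were lower and 0 higher, with miR-99b at -0.82, miR-100 at -0.77, miR-125a at -0.92, miR-125b at 0.39 (not called) and miR-10b at -0.13. With the equal Drosha-independent sum, 7 were lower and 0 higher, with miR-99b at -2.90, miR-100 at -2.86, miR-125a at -3.004, miR-125b at -1.70 and miR-10b at -1.87. Both settings shift all miRNAs of a library together by construction. miR-125a passed with median of ratios (-0.56), and ranged from -0.72 to -0.25 without single libraries. With quantile normalization miR-99b passed (-0.51), miR-10a did not (-0.78), miR-10b was at -0.32 and the log2 difference of the ratio of miR-99b to miR-125a was -0.066, and the cause was not tested. Without single libraries, values ranged from -0.84 to 1.31 for miR-10b and, as log2 differences of ratios, from -0.29 to 0.20 for miR-99b to miR-100, -0.021 to 0.22 for miR-99b to miR-125a and -0.0069 to 1.18 for miR-125a to let-7e.

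The labels do not say whether equal replicate numbers mark a shared culture. Deviations correlated at -0.117 and -0.135 between libraries with the same number, which settles nothing, since the deviations of 2 knockout libraries mirror each other. With the number as a replicate block, 2 members were lower and 1 higher (miR-10a -0.98, miR-99a -0.74 and miR-125b 0.90), while over all tested miRNAs 35 were lower and 39 higher instead of 56 and 57. Pseudocounts of 0.1 and 10, other filters, robust empirical Bayes, voom on the recovered reads, thinning to 207462 reads and testing every precursor entry changed no member's call or sign, except that miR-10b has no value at a mean of at least 50 TPM. Among fits with both knockout libraries, some counts over all tested miRNAs differed by more than 1.5 times from 56 lower and 57 higher. Besides the 35 lower with the replicate block, these were 34 lower without empty-vector library 1, 37 lower after thinning and 92 lower among all precursor entries. The others were 31 higher at 50 TPM, and 160 lower and 3 higher with the Drosha-independent sum. With 7.11-fold fewer reads in the knockout, depth limits miR-10b most.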
